A study of Mus musculus with 18 samples.

Results

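The transcripts of 9 genes that bring circulating fat into cells were followed in 2 tissues, quadriceps muscle and white adipose tissue, from obese mice given prednisone, a synthetic glucocorticoid, on 1 of 2 schedules. The genes are Lpl, Gpihbp1, Angptl4, Vldlr, Cd36, Slc27a1, Fabp3, Fabp4 and Fabp5. They are grouped by function, and all 9 were found among the 33641 gene symbols of the deposited table. All groups were wild-type male DBA/2J mice, an inbred strain, about 20 weeks old and already 12 weeks on a high-fat diet that went on through 12 further weeks of injections. The control mice received vehicle every day, and the treated mice received 1 mg/kg prednisone into the peritoneum either once weekly or once daily. No weekly vehicle group is among the labels. Each of the 9 mice gave both tissues 24 hours after its last injection, which made 18 libraries, 3 for each tissue and regimen.

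Fat travels in blood as triglyceride inside lipoprotein particles, and lipoprotein lipase (LPL) frees fatty acids from these particles at the capillary wall. Adipocytes and muscle fibres make the enzyme, GPIHBP1 carries it across the endothelial cell and holds it at the vessel lumen, and ANGPTL4 inactivates it. CD36 and the transport protein FATP1, encoded by Slc27a1, then help fatty acids into the cell, where the fatty acid binding proteins (FABPs) carry them through the cytosol. Muscle burns what it takes up, while white adipose tissue stores it as triglyceride again.

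Levels are in TPM, the authors' estimate of each transcript's abundance relative to all transcripts of its library and corrected for length, added up here over the transcripts of a gene. Because TPM holds no counts of reads, depth could not be assessed, and every error given comes from the spread between mice. Between 11781 and 12200 genes reached 1 TPM in the muscle libraries and between 13413 and 14076 in the adipose libraries. Ckm, the creatine kinase of muscle fibres, stood between 15450 and 19130 TPM in muscle. In adipose tissue Ckm exceeded 100 TPM in 3 libraries (weekly 2 at 176 TPM, weekly 3 at 130 TPM and daily 2 at 109 TPM) and was 13.2 to 35.0 TPM in the other 6. Adipoq, the adipocyte hormone adiponectin, was between 2877 and 3757 TPM in adipose tissue and between 40.6 and 120 TPM in muscle. In these bulk samples, fewer cells of a type and less RNA per cell cannot be told apart. The labels do not say whether libraries of a group were prepared together. In each of the 6 groups the third library held the middle of the 3 values more often than the other libraries did, for 40.9% to 52.3% of genes and for 38 of the 54 combinations of a group and 1 of the 9 genes. Calls that end without the third libraries are given beside the results. Leaving them out shrinks every group and mostly removes middle values, which widens the remaining spread by construction. A call lost that way therefore does not tell whether it depended on those libraries.

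**Figure D1:**
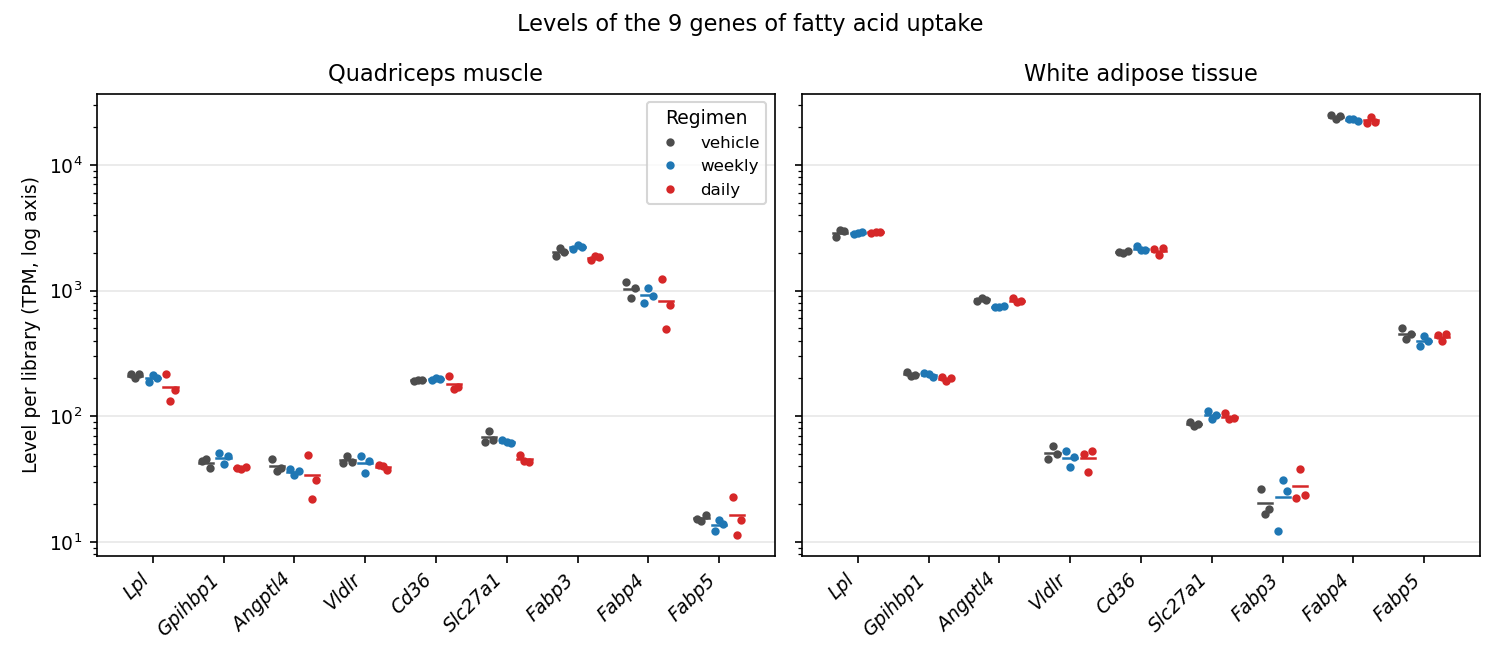
TPM of the 9 genes in each library (dots) with the mean of 3 (line), by regimen, in muscle (left) and adipose tissue (right), on a log axis. Fabp4, Lpl and Cd36 lead in adipose tissue and Fabp3 leads in muscle. The regimens lie close together next to the gap between the tissues, except for Slc27a1 and Vldlr, whose tissue gap is small.

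The lipase and its partners were far more abundant in adipose tissue than in muscle of vehicle mice. Lpl was at 2646, 3018 and 2968 TPM in the adipose tissue of vehicle mice 1, 2 and 3, and at 216, 201 and 216 TPM in their muscle. Muscle thus held 7.37% ± 0.765 (SD, n = 3) of the adipose level. Angptl4, the inhibitor, was at 830.4, 880 and 843 TPM in adipose tissue and at 45.4, 36.6 and 38.9 TPM in muscle, which is 4.75% ± 0.666 (SD, n = 3) of the adipose level. Gpihbp1, the endothelial anchor, was at 224, 210 and 211 TPM in adipose tissue and at 43.8, 45.8 and 38.5 TPM in muscle. Its muscle level was 19.9% ± 1.84 (SD, n = 3) of the adipose level, a larger share than for the lipase or its inhibitor. Pecam1 and Cdh5, markers of the endothelial cells in which Gpihbp1 is made, stood in muscle at 31.9% ± 1.45 and 35.6% ± 3.51 (SD, n = 3) of their adipose levels. Each of the 3 genes was higher in adipose tissue in all 9 mice.

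The FABP genes divided between the tissues. Fabp4, the FABP of adipocytes, was at 25110, 23030 and 24340 TPM in the adipose tissue of vehicle mice, where over all 9 adipose libraries it ranked 2 among all genes and made up 97.9% to 98.4% of the TPM of 9 Fabp genes. Fabp3, the FABP of heart and muscle, was at 1895, 2192 and 2041 TPM in muscle and at 26.3, 16.6 and 18.4 TPM in adipose tissue. The ratio of the vehicle means was 100.1, and Fabp3 held 58.4% to 78.9% of the Fabp TPM in the 9 muscle libraries. Fabp4 held most of the rest there, with 1178, 869 and 1044 TPM in vehicle muscle. Fabp5, the FABP also found in skin and macrophages, was at 505, 409 and 450 TPM in adipose tissue and at 15.2, 14.8 and 16.4 TPM in muscle. Fabp3 was thus the muscle gene of the family and Fabp4 and Fabp5 the adipose genes in every mouse. The other 6 Fabp genes reached at most 2.54 TPM in any library.

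The uptake receptor Cd36 was at 2012, 1978 and 2046 TPM in the adipose tissue of vehicle mice and at 192, 194 and 195 TPM in their muscle. Slc27a1 was the member with the nearest levels in both tissues after Vldlr, at 90.4, 84.4 and 86.6 TPM in adipose tissue and 62.9, 76.4 and 65.2 TPM in muscle. Vldlr, the receptor for very low density lipoprotein that holds particles near the lipase, was at 46.0, 57.6 and 50.2 TPM in adipose tissue and at 42.6, 48.1 and 43.6 TPM in muscle. Values of the tissues did not overlap for Cd36 and Slc27a1 and overlapped for Vldlr, which made 8 of the 9 genes without overlap, where 87.1% of all genes had none. By limma, a linear model with a spread moderated over all genes, 8 of the 9 genes differed between the tissues of vehicle mice at a Benjamini-Hochberg adjusted p under 0.05, against 86.7% of all 11737 genes tested. As muscle minus adipose on the scale of log2(TPM + 1), the differences of the called genes were -3.76 for Lpl, -2.31 for Gpihbp1, -4.37 for Angptl4, -3.37 for Cd36, -4.56 for Fabp4, -4.79 for Fabp5, -0.35 for Slc27a1 and 6.60 for Fabp3, with standard errors from 0.065 to 0.225 and limma adjusted p of 0.000998 or less. The median over all genes was -0.88, and it was 0.07 when libraries were scaled by the trimmed mean of log ratios (TMM). With TMM, Slc27a1 was higher in muscle, at 0.73, and so was Vldlr, at 0.89, so the direction of these 2 small tissue differences is set by the scaling. The other 7 kept their direction under every alternative, but not their size. Lpl ranged from -3.84 to -2.66, Gpihbp1 from -2.38 to -1.22 and Angptl4 from -4.48 to -3.28. Muscle levels given as a percent of adipose levels are of TPM without further scaling.

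Within muscle the order of the mean levels over 9 libraries was Fabp3 (2027 TPM), Fabp4 (926 TPM), Lpl (194 TPM), Cd36 (191 TPM), Slc27a1 (58.9 TPM), Gpihbp1 (42.8 TPM), Vldlr (42.4 TPM), Angptl4 (37.0 TPM) and Fabp5 (15.2 TPM). Lpl and Cd36 overlapped, and so did each neighbouring pair from Slc27a1 down. Within adipose tissue the order was Fabp4 (23160 TPM), Lpl (2885 TPM), Cd36 (2079 TPM), Angptl4 (809 TPM), Fabp5 (428 TPM), Gpihbp1 (209 TPM), Slc27a1 (96.3 TPM), Vldlr (48.1 TPM) and Fabp3 (23.8 TPM). There all neighbours were apart in all libraries except Vldlr and Fabp3, whose ranges met.

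The share of Vldlr TPM assigned to the annotated form that holds 1 optional coding exon was higher in muscle than in adipose tissue. Exon 16 of the 19 exons of the longest annotated form, at chr19:27246593-27246676 on the plus strand of GRCm38, is 84 bases long, or 28 codons, and encodes the stretch of the receptor known for carrying O-linked sugars. The other 3 long transcripts of the gene skip it and join exon 15 to exon 17. Both joins are shown because the forms that hold them took different shares of the TPM in the tissues. Lower case marks 20 bases of each neighbouring exon and capitals mark the skipped exon, 5′ to 3′.
Vldlr with exon 16: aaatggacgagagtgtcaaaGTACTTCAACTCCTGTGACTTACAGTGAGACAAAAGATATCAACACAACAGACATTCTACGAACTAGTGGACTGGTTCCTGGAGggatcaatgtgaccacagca
Vldlr without exon 16: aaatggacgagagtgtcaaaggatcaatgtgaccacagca

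The form with the exon made up 85.7% to 95.5% of the TPM of the 4 long Vldlr transcripts in the 9 muscle libraries, with a mean of 90.4% ± 3.00 (SD, n = 9). In the 9 adipose libraries it made up 49.2% to 71.4%, with a mean of 56.6% ± 6.75 (SD, n = 9). All muscle shares lay above all adipose shares. Within a mouse the share was higher in muscle by 22.1 to 39.3 percentage points, with a mean of 33.9 ± 5.83 (SD, n = 9), and it was higher in 9 of 9 mice. The 3 forms without the exon summed to 3.85 ± 1.44 TPM in muscle and 19.9 ± 4.68 TPM in adipose tissue, while the form with it was at 35.6 ± 2.49 and 25.4 ± 2.72 TPM (SD, n = 9). Of the 3, a form annotated for nonsense-mediated decay averaged 14.3 TPM in adipose tissue and 1.06 TPM in muscle, and of the 2 coding forms 1 averaged 4.03 and 0.228 TPM and the other, with the opposite order, 1.57 and 2.56 TPM. By regimen the share averaged 87.6% ± 1.77, 91.7% ± 3.44 and 92.0% ± 1.64 in muscle and 54.5% ± 5.85, 56.5% ± 3.39 and 58.6% ± 11.1 in adipose tissue after vehicle, weekly and daily prednisone (SD, n = 3), and these were not tested. The exon was picked out after its values were seen, so the difference is given with no test. The form with the exon also ends in a longer last exon, of 5127 bases against 623 to 758 in the other forms, so the estimate also reads the 3′ end, and the part of each in the difference was not tested.

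**Figure D2:**
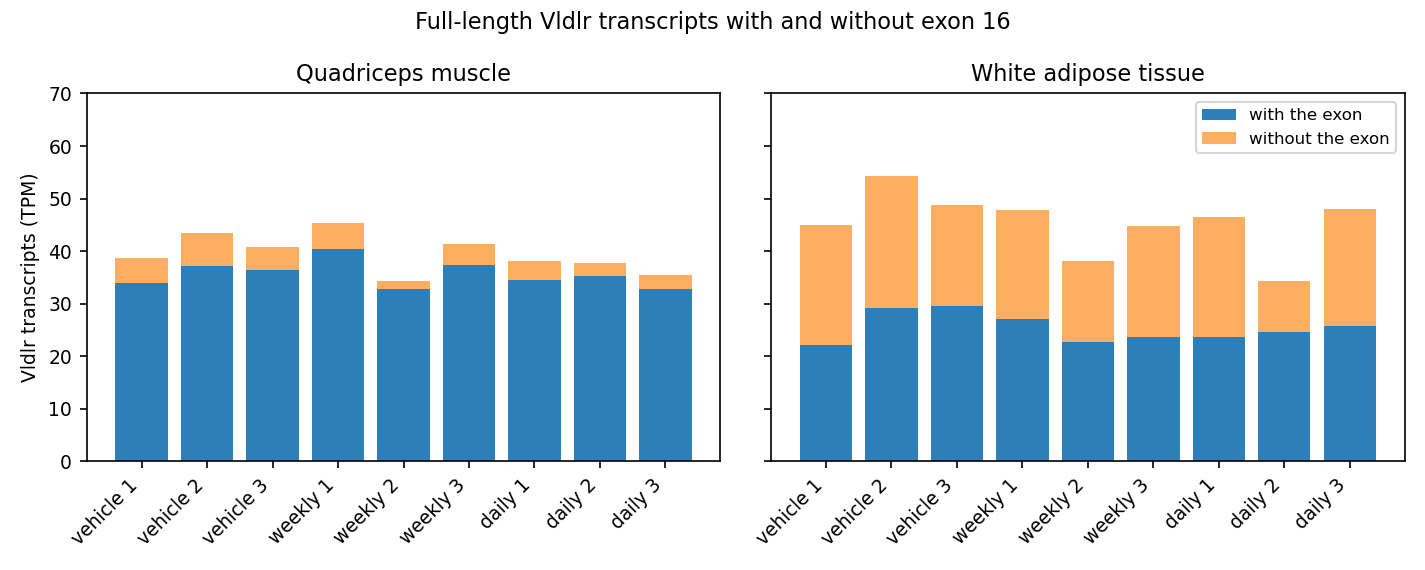
TPM of the 4 long Vldlr transcripts in each library, stacked as the form with exon 16 (blue) and the forms without it (orange), in muscle (left) and adipose tissue (right). The forms without the exon make up a thin cap in all 9 muscle libraries and a larger part of the bar in all 9 adipose libraries.

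Most of the Angptl4 signal was assigned to a transcript that is annotated as a target of nonsense-mediated decay. That form held 77.1% to 81.1% of the gene's TPM in muscle and between 78.0% and 82.2% in adipose tissue. The full-length coding form held 16.4% in muscle and 17.5% in adipose tissue on average. Over the exons they share, the forms differ by 4 bases at the start of exon 3, whose span in the coding form is chr17:33780530-33780647 on the minus strand of GRCm38. The join of exons 2 and 3 is shown for each because a gene total of Angptl4 sums both, with the extra bases in capitals.
Angptl4 coding form: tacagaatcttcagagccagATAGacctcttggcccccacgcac
Angptl4 decay form: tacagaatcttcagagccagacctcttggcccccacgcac

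The coding form matched the annotation by its identifier but with another version number, so its join and length are those of the GENCODE M21 version. The transcripts also differ at both ends, with 3308 bases in the coding form and 1859 in the decay form, and from TPM alone reads over the join cannot be told from reads over the ends. The share of the decay form in muscle was 80.1% ± 0.817 after vehicle, 80.3% ± 0.977 after weekly and 78.6% ± 1.42 after daily prednisone (SD, n = 3), which was not tested. Lpl was almost all 1 coding transcript, at 99.3% to 99.8% of the gene's TPM in muscle and between 96.1% and 99.8% in adipose tissue. A minor Lpl form annotated for nonsense-mediated decay was in adipose tissue at 4.22, 9.74 and 9.81 TPM after vehicle, 70.2, 32.5 and 57.7 TPM after weekly and 104, 1.46 and 41.9 TPM after daily prednisone. All weekly libraries were above all vehicle libraries and the daily libraries spanned both, in a form picked out after its values were seen and given with no test.

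Slc27a1 was the 1 gene of the 9 called between a prednisone group and vehicle, and it fell in muscle under the daily schedule. In muscle Slc27a1 was at 62.9, 76.4 and 65.2 TPM in vehicle mice, at 64.9, 62.4 and 61.3 TPM after weekly prednisone and at 49.4, 44.1 and 43.6 TPM after daily prednisone. All daily values were below all vehicle and all weekly values, while vehicle and weekly values overlapped. From vehicle to daily the mean went from 68.2 ± 7.22 to 45.7 ± 3.23 TPM (SD, n = 3), a change of -33.0% and of -0.56 ± 0.079 (SE) on the log2 scale, with a limma adjusted p of 0.00397. That is 1 of 9 genes called, where 13.7% of all 12246 muscle genes were called in this comparison and 11.8% were called as lower. Of the genes called, 14.0% were higher, and 43.1% of 779 with TMM scaling. Weekly exceeded daily muscle by 0.45 ± 0.079 (SE; limma adjusted p = 0.0281), 1 of 9 genes where 1.77% of all genes passed. These comparisons share the daily libraries. Weekly against vehicle differed by -0.11 ± 0.079 (SE), with a 95% interval from -0.29 to 0.07 and a limma adjusted p of 0.537. None of the 9 genes passed in that comparison or had an unadjusted p under 0.05, where 0.049% of all genes passed by limma and 1891 had such a p. Cd36, at 195.2, 200.5 and 197.3 TPM in weekly and 191.8 to 194.6 TPM in vehicle muscle, was the 1 gene of 9 without overlap there, where 23% of all genes had none.

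The fall of Slc27a1 in daily muscle stayed called when each library was left out in turn, with limma adjusted p from 0.00685 to 0.0265, and under TMM scaling, at -0.47 (adjusted p = 0.00764). Without the third libraries the difference was -0.56 but its limma adjusted p was 0.134, and the difference between the schedules was 0.44 with an adjusted p of 0.602. The schedule difference was also not called without vehicle 3, any of the 3 weekly libraries, daily 2 or daily 3, with a limma adjusted p of up to 0.153. The Slc27a1 transcript with the highest level, a coding form, was at 28.7 ± 4.14 TPM in vehicle, 24.3 ± 2.64 TPM in weekly and 17.3 ± 0.826 TPM in daily muscle (SD, n = 3), the same order as the gene total.

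In adipose tissue Slc27a1 was on the other side of its vehicle level. It was at 90.4, 84.4 and 86.6 TPM in vehicle mice, 109, 95 and 103 TPM after weekly and 106, 94.6 and 97.8 TPM after daily prednisone. Neither treated group overlapped with the vehicle libraries, which both comparisons share, and the treated groups overlapped with each other. The differences were 0.23 ± 0.072 (SE; limma adjusted p = 0.0757) for weekly and 0.19 ± 0.072 (SE; limma adjusted p = 0.473) for daily prednisone, so neither passed, and with TMM scaling the weekly difference was 0.06. The daily effect in muscle minus that in adipose tissue of the same mice was -0.75 ± 0.103 (SE; limma adjusted p = 0.0495), 1 of 9 genes called where 0.0596% of 11737 genes were. This call sits at the threshold and was lost in 13 of 18 alternatives, which gave values from -0.84 to -0.65. Without the third libraries its limma adjusted p was 0.774. The same difference for the weekly effect was -0.34 ± 0.103 (SE; limma adjusted p = 0.0838), with 0 of the 9 genes called where 2.56% of all genes were.

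**Figure D3:**
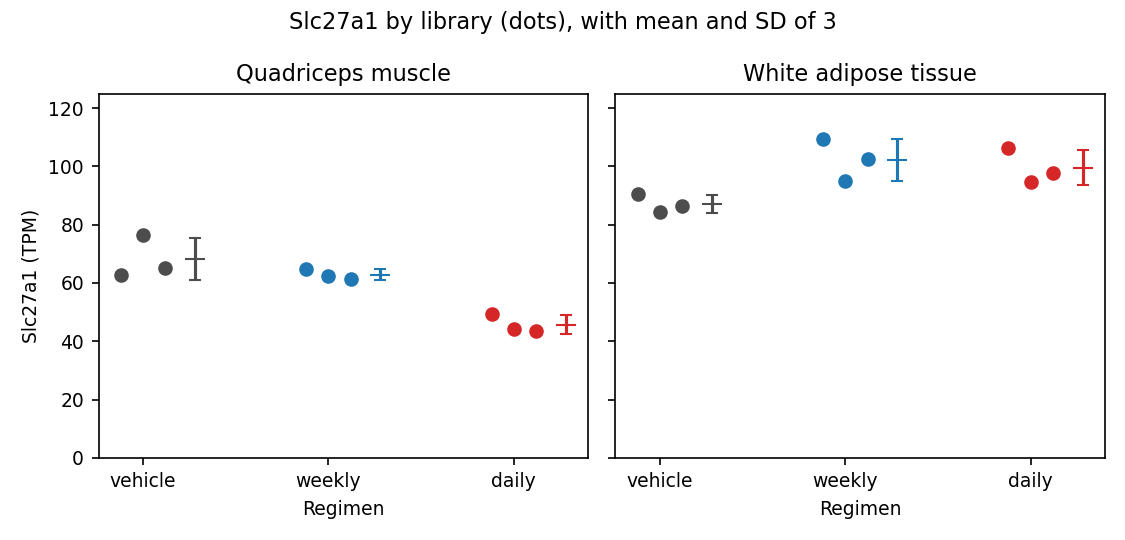
Slc27a1 in TPM by library (dots), with the mean and SD of 3 beside them, for the 3 regimens in muscle (left) and adipose tissue (right). The 3 daily muscle libraries, at 43.6 to 49.4 TPM, lie below the other 6, while in adipose tissue both treated groups lie above vehicle.

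The other 8 genes did not pass the test in daily muscle. Fabp3 came nearest: it was at 1895, 2192 and 2041 TPM in vehicle, 2129, 2295 and 2220 TPM in weekly and 1753, 1887 and 1835 TPM in daily muscle. Daily values lay below all vehicle and all weekly values. Daily against vehicle was -0.16 ± 0.059 (SE; limma adjusted p = 0.104) and weekly against daily was 0.28 ± 0.059 (SE; limma adjusted p = 0.0529), and with TMM scaling the former was -0.07. Vldlr also had daily values, of 41.1, 40.6 and 37.3 TPM, below all vehicle values of 42.6 to 48.1 TPM, with a difference of -0.17 ± 0.106 (SE; limma adjusted p = 0.316). In all, 3 of the 9 genes did not overlap between daily and vehicle muscle, where 33.8% of all genes did not. Gpihbp1 was at 43.8, 45.8 and 38.5 TPM in vehicle, 51.2, 41.4 and 48.0 TPM in weekly and 38.9, 37.9 and 39.4 TPM in daily muscle. Its weekly values lay above its daily values, with a difference of 0.26 ± 0.086 (SE; limma adjusted p = 0.158), and 3 of the 9 genes did not overlap between the schedules, where 23.3% of all genes did not.

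**Figure D4:**
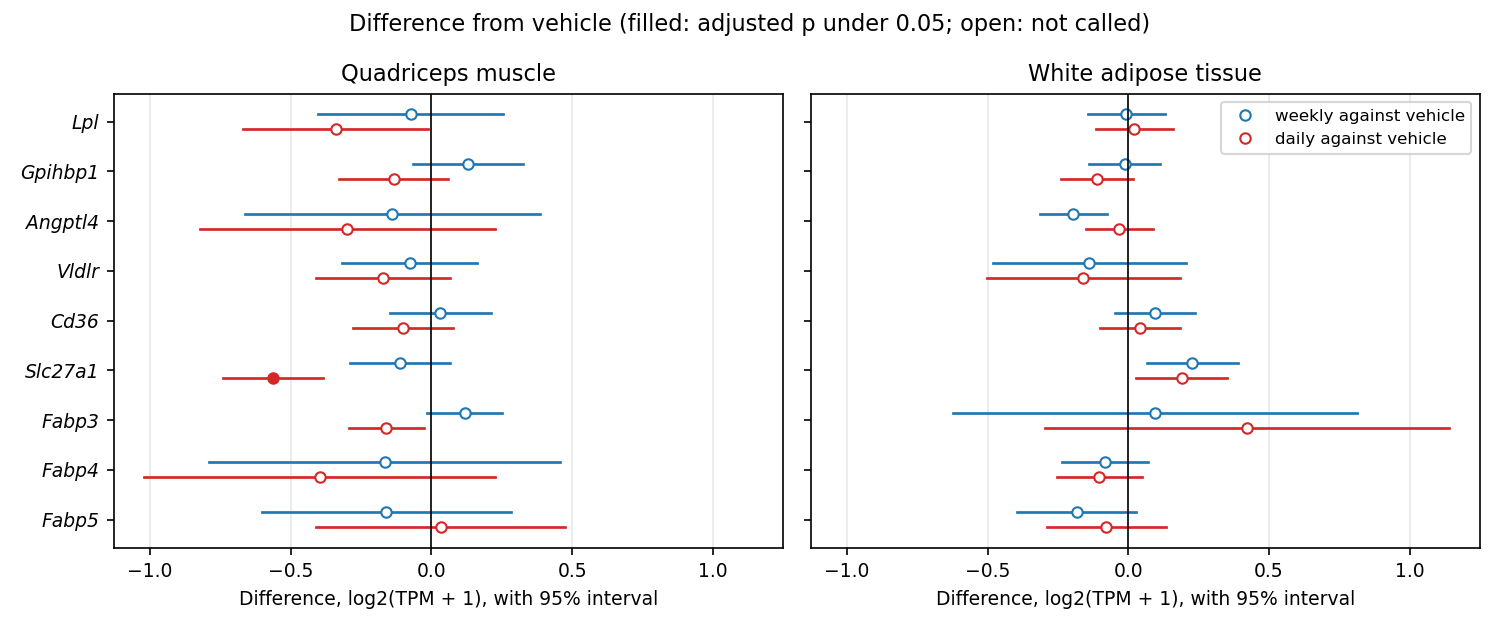
Difference from vehicle on the log2(TPM + 1) scale, with its 95% interval, for weekly (blue) and daily (red) prednisone in muscle (left) and adipose tissue (right). Slc27a1 in daily muscle, at -0.56, is the filled point, and the widest muscle intervals are those of Fabp4, Angptl4 and Fabp5.

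Lpl, Angptl4 and Fabp4 varied in muscle with the amount of adipocyte transcript in the library. Lpl was at 216, 132 and 161 TPM in daily muscle libraries 1, 2 and 3, against 201 to 216 TPM in vehicle and 188 to 212 TPM in weekly muscle. Fabp4 was at 1227, 493 and 774 TPM and Angptl4 at 49.6, 21.8 and 31.3 TPM in the same daily libraries. For each of these 3 genes daily library 1 was level with or above vehicle, and daily libraries 2 and 3 were the lowest of the 9. Adipoq ran in the same order, at 120, 40.6 and 65.8 TPM in daily muscle, 89.3 to 113 TPM in vehicle muscle and 70.8 to 95.1 TPM in weekly muscle. The summed TPM of 10 adipocyte markers was 1598 to 1913 in vehicle, 1326 to 1587 in weekly and 719 to 1755 in daily muscle, with none of the 10 at 0. Car3 and Pnpla2, which muscle fibres also make, held 66.1% to 72.3% of that sum in the 9 muscle libraries.

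Across the 9 muscle libraries Lpl followed that sum with Pearson's r = 0.985 (permutation p = 7.72e-05, adjusted 0.00139 over 18 relations) and Spearman's rho = 0.933 (permutation p = 0.00075, adjusted 0.0135). Without the 2 libraries farthest from the median, daily 2 and daily 3, r was 0.901, and within the groups it was 0.991. Fabp4 followed it with r = 0.958 (permutation p = 0.000259, adjusted 0.00233) and rho = 0.900 (permutation p = 0.00203, adjusted 0.0183), with r = 0.876 without those libraries and 0.985 within groups. Angptl4 followed it with r = 0.917 (permutation p = 0.00223, adjusted 0.0134) and rho = 0.833 (permutation p = 0.00827, adjusted 0.0388), and r was 0.609 without those libraries and 0.943 within groups. For Cd36 r was 0.870 (permutation p = 0.013, adjusted 0.058) and rho 0.400 (permutation p = 0.291, adjusted 0.511). Since its r was 0.060 without daily 2 and daily 3, the relation of Cd36 to this sum over the 9 libraries rests on them. Within groups its r was 0.920. The sum ran from 719 to 1755 TPM in daily muscle, against 1598 to 1913 in vehicle and 1326 to 1587 in weekly muscle. Every within-group r given here thus also leans on the daily libraries. Fabp5 had r = 0.639 (permutation p = 0.0271, adjusted 0.0698) and rho = 0.817 (permutation p = 0.0108, adjusted 0.0388), with r = 0.632 without those libraries and 0.962 within groups. For Gpihbp1, Fabp3, Vldlr and Slc27a1 r was 0.249, 0.200, 0.195 and 0.657, with adjusted permutation p from 0.135 to 0.808. With Car3 and Pnpla2 left out of the sum, a choice made after seeing the data, r was 0.964 for Lpl, 0.989 for Fabp4 and 0.915 for Angptl4 (adjusted permutation p from 0.000198 to 0.00661 over 9 relations). It was then 0.722 for Fabp5 and 0.844 for Cd36 (both adjusted permutation p = 0.019), and rho for Cd36 was 0.467 (adjusted permutation p = 0.383). The 2 libraries farthest from the median of that shorter sum were vehicle 1 and daily 2, and without them r for Cd36 was 0.808. Markers and genes come from the same libraries and share their scaling.

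Set against Adipoq in the same library, Fabp4 stood at 9.73 to 12.2 times its level in muscle and at 6.13 to 8.28 times in adipose tissue. The ratio of Fabp4 to Adipoq thus spanned 1.25-fold over muscle libraries in which Fabp4 itself spanned 2.49-fold. For Fabp5 the ratio was 0.134 to 0.283 in muscle and 0.0964 to 0.166 in adipose tissue, and for Angptl4 it was 0.358 to 0.540 and 0.196 to 0.304. Lpl stood at 1.81 to 3.25 times Adipoq in muscle and 0.751 to 1.00 times in adipose tissue, and Cd36 at 1.69 to 4.04 and 0.594 to 0.744 times. The ratios of Slc27a1, at 0.413 to 1.09 in muscle and 0.0254 to 0.0370 in adipose tissue, and of Fabp3, at 14.6 to 46.5 and 0.00324 to 0.0120, were much farther apart between the tissues. In vehicle mice the 10 adipocyte markers stood in muscle at 2.70% (Cidec) to 15.1% (Pnpla2) of their adipose levels, with Adipoq at 3.20% ± 0.529 (SD, n = 3), and the highest apart from Pnpla2 was Aqp7, at 7.85%. Fabp4, at 4.25% ± 0.460, Fabp5, at 3.42% ± 0.362 (SD, n = 3), Angptl4 and Lpl lay inside that range. Cd36, at 9.61% ± 0.154 (SD, n = 3), lay inside it only through Pnpla2 and above the other markers. Gpihbp1, Slc27a1 (78.5%), Vldlr (87.7%) and Fabp3 lay above the range.

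**Figure D5:**
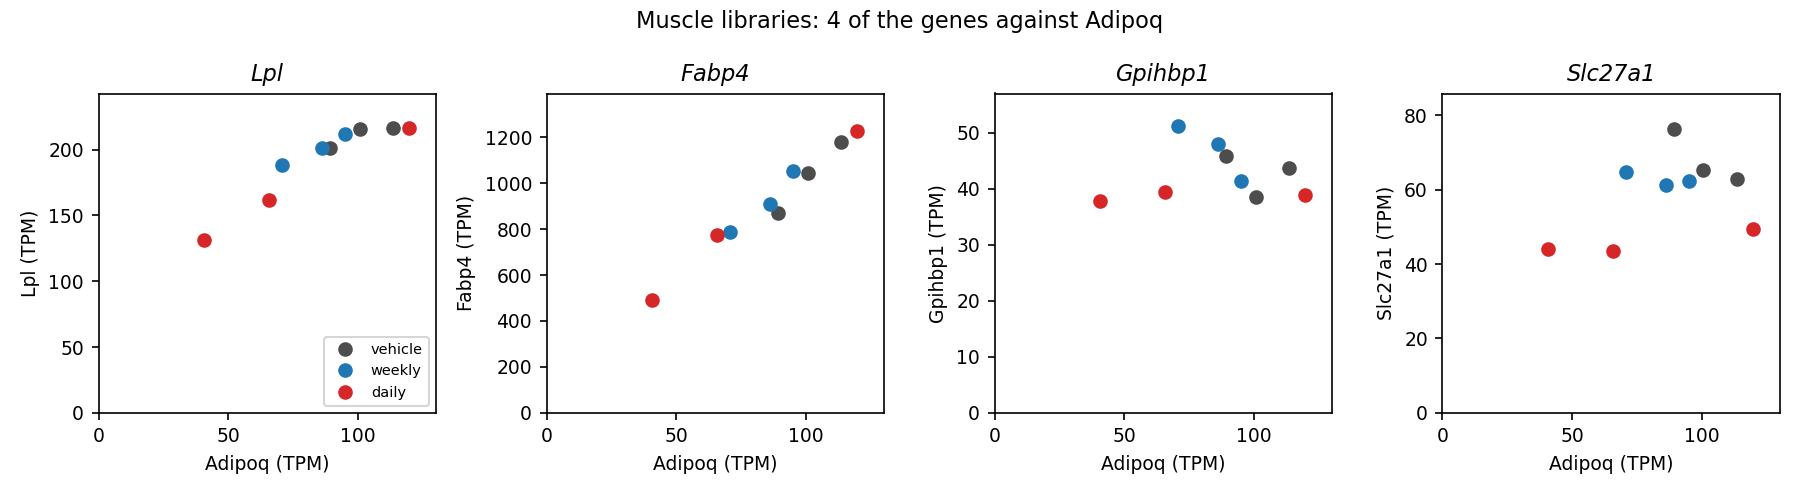
TPM of Lpl, Fabp4, Gpihbp1 and Slc27a1 against TPM of Adipoq in the 9 muscle libraries, colored by regimen, with linear axes from 0. Lpl and Fabp4 climb with Adipoq across the regimens, while the 3 daily libraries keep the lowest Slc27a1 at Adipoq levels from 40.6 to 120 TPM.

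Differences from vehicle in daily muscle were -0.34 ± 0.146 for Lpl (limma adjusted p = 0.153), -0.40 ± 0.277 for Fabp4 (0.375), -0.30 ± 0.233 for Angptl4 (0.428) and -0.10 ± 0.079 for Cd36 (0.432), each with its SE. None passed. Daily library 1 was the highest daily library for each of these genes. Without it the differences were -0.53 (limma adjusted p = 0.0113), -0.73 (0.048), -0.60 (0.0311) and -0.21 (0.0188), all called. With Slc27a1 that made 5 of the 9 genes, where 13.6% of all genes were called. Leaving out the highest library lowers the daily mean by construction, so these calls give no support of their own. With log2 Adipoq as a covariate, added after seeing the data, the differences were -0.09, 0.08, 0.07 and 0.01 with limma adjusted p from 0.181 to 0.884. Adipoq belongs to the adipocyte markers that Lpl, Fabp4 and Angptl4 followed, and it was measured after treatment. Smaller differences of these genes with it are thus built in and give no support of their own. Slc27a1 was -0.54 with that covariate (limma adjusted p = 0.00974), close to its value without it. Fabp5, at 15.2, 14.8 and 16.4 TPM in vehicle and 22.9, 11.5 and 14.9 TPM in daily muscle, went from 0.03 ± 0.196 (SE; limma adjusted p = 0.935) to 0.36 with the covariate (adjusted p = 0.0197). Markers of macrophages, which also express Fabp5, summed to 264 to 378 TPM in vehicle, 271 to 280 TPM in weekly and 430 to 692 TPM in daily muscle over 12 genes, and their part in the Fabp5 value was not tested. With the covariate 2 of the 9 genes passed in daily muscle, where 14.6% of all genes did, and the schedules differed in 3 of the 9 where 5% of all genes did, Fabp3 (0.30, limma adjusted p = 0.0263), Fabp5 (-0.36, 0.0257) and Slc27a1 (0.44, 0.0236).

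Genes whose muscle pattern was most like that of Lpl over the 9 libraries were Scp2 (r = 0.995), Ces1d (0.990), Car3 (0.982), Aoc3 (0.982) and Lep (0.981) among 7651 genes with a mean of at least 5 TPM. Among the other members, Fabp4 (r = 0.948), Cd36 (0.924) and Angptl4 (0.892) were at places 35, 62 and 110 of that order and Gpihbp1 (0.282) at place 3944. In adipose tissue, where Lpl spanned 1.14-fold over all libraries, the likest of 10416 genes were Ppp2r5a (0.938), Elmo3 (0.935), Ubald1 (0.924), Smyd5 (0.899) and Tvp23b (0.897), and no member had r above 0.257. These coefficients describe 9 libraries and carry no test.

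No gene of the lipase system was called in adipose tissue under either schedule. Lpl was at 2820, 2845 and 2916 TPM after weekly and 2886, 2924 and 2942 TPM after daily prednisone, inside the vehicle range of 2646 to 3018 TPM. The 95% intervals of its difference from vehicle ran from -0.14 to 0.13 for weekly and from -0.12 to 0.16 for daily prednisone on the log2 scale. Angptl4 was at 736, 744 and 749 TPM after weekly prednisone, below the vehicle values of 830.4, 880 and 843 TPM and the daily values of 874, 804 and 821 TPM. Weekly against vehicle was -0.20 ± 0.053 (SE; limma adjusted p = 0.0529) and did not pass. It was -0.37 with TMM scaling (adjusted p = 0.0223) and -0.02 with quantile normalization (0.885), so the size and the call depend on the scaling. The median over all genes in that comparison was 0.13, and -0.02 with TMM, and 76.9% of the genes called were higher, against 34.1% with TMM.

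None of the 9 genes passed in adipose tissue after weekly prednisone, where 7.43% of 14150 genes did by limma. There 2 of the 9 and 4358 of all genes had an unadjusted p under 0.05. None passed after daily prednisone, where 0.00707% of genes did, and 1 of the 9 and 1305 of all genes had such a p. None passed between the schedules, where 0.311% of genes did, and 1 of the 9 and 2242 of all genes had such a p. With TMM scaling 1 of the 9 genes passed in the first of these, where 8.37% of all genes did. With array weights 5, 2 and 2 passed, where 54.3%, 19.9% and 27.9% of all genes did. Angptl4, Cd36 and Slc27a1 did not overlap between weekly and vehicle, 3 of 9 where 35.4% of all genes did not. Cd36 was at 2251, 2087 and 2115 TPM after weekly prednisone, above 1978 to 2046 TPM in vehicle, with a difference of 0.10 ± 0.064 (SE; limma adjusted p = 0.326). Gpihbp1 was at 205, 192 and 201 TPM after daily prednisone, below 210 to 224 TPM in vehicle, with a difference of -0.11 ± 0.057 (SE; limma adjusted p = 0.59). With Slc27a1 that made 2 of 9 genes not overlapping between daily and vehicle, where 15.6% of all genes did not. Between the schedules Angptl4 alone of the 9 did not overlap, where 25.5% of all genes did not. Endothelial markers summed to 1035 to 1251 TPM over 12 genes after weekly prednisone, 889 to 933 TPM in vehicle and 865 to 965 TPM after daily prednisone, while Gpihbp1 was at 220, 215 and 204 TPM in the weekly libraries, 2 of them within the vehicle range and 1 below it.

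Fabp4 in adipose tissue was at 25110, 23030 and 24340 TPM in vehicle, 23040, 23030 and 22360 TPM after weekly and 21660, 23860 and 21990 TPM after daily prednisone, with overlapping groups and differences of -0.08 ± 0.068 and -0.10 ± 0.068 (SE). Fabp5 was at 362, 437 and 400 TPM after weekly and 443, 396 and 450 TPM after daily prednisone, against 409 to 505 TPM in vehicle. Vldlr was at 52.8, 39.7 and 47.4 TPM after weekly and 49.9, 35.9 and 52.9 TPM after daily prednisone. Its 2 lowest adipose values were those of weekly 2 and daily 2, both among the libraries with Ckm above 100 TPM. Fabp3 was at 12.2, 31.3 and 25.5 TPM after weekly and 22.3, 38.0 and 23.7 TPM after daily prednisone, and its 2 highest values were in those same libraries.

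Across the 9 adipose libraries Fabp3 went with the sum of 12 muscle fibre markers at r = 0.724 (permutation p = 0.0187, adjusted 0.058) and rho = 0.733 (permutation p = 0.0311, adjusted 0.0934), with r = 0.768 without weekly 2 and weekly 3 and 0.957 within groups. Vldlr went against it at r = -0.81 (permutation p = 0.0193, adjusted 0.058) and rho = -0.817 (permutation p = 0.0108, adjusted 0.0388), with r = -0.956 without those libraries and -0.877 within groups. That sum was 168 to 282 TPM in vehicle, 199 to 1706 TPM in weekly and 177 to 1065 TPM in daily adipose tissue, with none of the 12 markers at 0 in a group. With log2 Ckm as a covariate the weekly differences from vehicle in adipose tissue were -0.18 for Angptl4 (limma adjusted p = 0.0434), 0.17 for Cd36 (0.0466), 0.29 for Slc27a1 (0.0183) and -0.47 for Fabp3 (0.0118). All 4 then passed, where 30.3% of all genes did, and Fabp3 changed sign from 0.09 ± 0.322 (SE) without the covariate.

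Beyond the 9 genes, transcription factors of uptake genes were the list with the most calls in daily muscle. Of 19 such factors 9 fell and 0 rose, where 11.8% of all genes fell, with a median of -0.28 on the log2 scale against -0.09 over all genes. They include Rxra (-0.43), the partner of the PPAR receptors, Esrra (-0.34), an estrogen-related receptor, Nr1h2 (-0.37), a liver X receptor, and Epas1 (-0.31), a hypoxia-inducible factor. With TMM scaling 6 of the 19 fell, where 443 of all 12246 genes did. With quantile normalization 3 of the 19 fell, and its count over all genes is not given here. Without the third libraries 0 passed by limma, where 7 of all genes did. Of 17 tested genes of fatty acid transport, binding and activation 3 fell, with a list median of -0.17, a share near that of all genes, and 0 did with TMM or without the third libraries. They were Acsl1 (-0.27), which joins fatty acids to coenzyme A, and the palmitoyltransferases Zdhhc4 (-0.33) and Zdhhc5 (-0.30), which modify CD36. Vegfb (-0.40), a growth factor linked to endothelial fatty acid transport, fell as 1 of 12 genes of endothelial fatty acid supply, with a list median of -0.14, also near the share of all genes. Vegfb was called in 19 of 20 alternatives, the exception being without the third libraries. Of 17 tested partners of LPL and of lipoprotein handling 0 passed by limma, with a median of -0.07. An unadjusted p under 0.05 was found for 2 of them and for 3676 of all 12246 genes. Between the schedules Ppard (0.37), Rxra (0.30) and Epas1 (0.39) were higher after weekly than after daily prednisone, 3 of 19 transcription factors where 1.77% of all genes passed, with a list median of 0.18 against 0.03 over all genes. With TMM, where 211 of all genes were called, 2 of the 3 were, without Rxra (limma adjusted p = 0.0512). Without the third libraries 0 were, where 9 of all genes were called.

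In adipose tissue 8 genes of these lists, with 21, 18, 12 and 19 tested genes, passed after weekly prednisone, where 7.43% of all genes did. Without the third libraries 0 of the 8 passed, where 1 of all genes did. Apoc1 (-0.35) and Apoe (-0.39), both apolipoproteins, fell and were among the 4 called of 21 tested partners of LPL and lipoprotein handling, with a list median of 0.12 against 0.13 over all genes. Slc27a3 (0.90), a relative of Slc27a1, rose as 1 of 18 transport genes, from a mean of 3.58 to 7.44 TPM, with a list median of 0.13. Flt1 (0.65), the receptor for VEGF-B, and Notch4 (0.66) and Rbpj (0.51), both of Notch signaling, rose as 3 of 12 genes of endothelial fatty acid supply, with a list median of 0.36. In the same libraries 4 of 12 endothelial, 3 of 12 macrophage and 3 of 6 mesothelial markers rose by the same test, with medians of 0.34, 0.27 and 0.71, and their part in the list changes was not tested. The weekly effect was more negative in muscle than in adipose tissue for Flt1 (-0.60) and Nr1h2 (-0.40), 1 gene of each list where 2.56% of all genes passed. Neither was called with TMM (-0.35 and -0.15), where 0 of all genes were, or without the third libraries. None of the 19 transcription factors passed by limma in weekly adipose tissue, where 5 of them and 4358 of all genes had an unadjusted p under 0.05. With TMM 3 of the 19 were called as lower, where 780 of all genes were.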

How the data were processed

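Libraries were stranded mRNA from Trizol and column-purified RNA, per the labels' protocols. The deposited table gives TPM by transcript and symbol, made by the authors from reads with kallisto, HISAT2 and Trimmomatic and the build mm10, all named without versions or roles per the submitters' processing notes. Its annotation is not given in the sources used here. Of 42 transcripts of the 9 genes 41 matched GENCODE M21, read for positions on GRCm38. All 105129 transcripts were summed by symbol. Genes at 1 TPM or more in 3 libraries of a tissue were tested on log2(TPM + 1), which understates changes of low genes, with limma 3.58.1 in R 4.3.3 (moderated, trended variance, 6 residual degrees of freedom). P-values were adjusted by Benjamini-Hochberg over all genes of a comparison and called at 0.05. Differences between tissues used each mouse's muscle minus adipose value, with mice matched by the number in the labels. Permutation tests were run with scipy 1.17.1 and figures drawn with matplotlib 3.10.9. The labels tie libraries to mice, so errors include mouse and library. The design text names fewer daily adipose samples than the labels and the table, which hold 3. Genes and lists were chosen with earlier results of these data known. Named list genes are at most 4 per list and comparison, those with the smallest p among called genes, of which 2 are not reported here. The tests were checked on simulated data.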

Additional observations from a re-analysis of the deposited data

Results flagged for a closer look

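Slc27a1 stood out because its daily effect differed between the tissues by a test of the difference itself. The daily effect in muscle minus that in adipose tissue was -0.75 on the log2 scale (limma adjusted p = 0.0495 over 11737 genes), and it was not called in 13 of 18 alternatives.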

How the results depend on the processing

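Values are counts of the 9 genes called by limma unless said otherwise. TMM scaling gave 1 in adipose tissue after weekly prednisone and 0 for the tissue difference of the daily effect, which was also 0 with quantile normalization, with a pseudocount of 0.1 and with no filter. Between the tissues of vehicle mice it turned Slc27a1 to 0.73 and Vldlr to 0.89, and quantile normalization turned them to 0.46 and 0.65. No filter gave 0 for weekly against daily muscle. A filter at 5 TPM gave 2 there and 1 in weekly adipose tissue, with no count over all genes given here. Array weights, whose estimation stopped before its tolerance, gave 5 for daily and 6 for weekly against daily muscle. Over all genes these comparisons then had 5166 and 4159 calls. In adipose tissue the weights gave 5, 2 and 2, where 54.3%, 19.9% and 27.9% of all genes passed. They gave 1 for the tissue difference of the weekly effect, where 2528 of all genes passed. With log2 Ckm as a covariate 4 passed in weekly adipose tissue, where Fabp3 became -0.47, and 1 for weekly against daily. With log2 Adipoq, added after seeing the data, 2 passed in daily muscle and 3 for weekly against daily. Without the third library of each group 0 passed in daily muscle, 0 between the schedules in muscle and 0 for the tissue difference of the daily effect. Leaving out 1 library or mouse at a time gave 1 to 5 in daily muscle, 0 to 2 for weekly against daily muscle, 0 to 1 in weekly adipose tissue and 0 to 1 for the tissue difference of the daily effect. Apart from the conditions that remove libraries or filter genes, the cause was not tested. Of 202 alternative values for called genes 177 stayed called, 23 did not, and 2 changed sign. Most of these values belong to the tissue differences of vehicle mice, which passed in every alternative, the 2 sign changes of Slc27a1 included. The prednisone calls of Slc27a1 held less often. They stayed in 19 of 20 alternatives for daily against vehicle muscle and 11 of 20 for weekly against daily muscle. For the tissue difference of the daily effect 5 of 18 stayed. Of the other values 41 became called.

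The replicate numbers name different mice in different regimens. Residuals of libraries with the same number had a median correlation of -0.0304 (muscle) and 0.0295 (adipose tissue). These were not set against libraries with different numbers, so a batch shared by number was not tested. With the replicate block 2 genes passed in daily muscle, Slc27a1 and Fabp3 (limma adjusted p = 0.0351), and between the schedules in muscle Fabp3 passed (0.0254) and Slc27a1 did not (0.0672). Counts over all genes with the block are not given here. Fits of tissue differences are paired by mouse, and without that pairing the daily difference of Slc27a1 had a limma adjusted p of 0.00571. Counts over all genes moved further. The 1674 called in daily muscle became 779 with TMM, 7 without the third libraries and 5166 with array weights. Over the alternatives the 6 in weekly muscle ranged from 0 to 272 and the 217 between the schedules in muscle from 9 to 4159. In adipose tissue the 1052 after weekly prednisone ranged from 1 to 7679, the 1 after daily from 0 to 2820 and the 44 between the schedules from 0 to 3941. The 10175 between the tissues of vehicle mice ranged from 6515 to 13879, and the 301 and 7 for the tissue differences of the weekly and daily effects from 0 to 2528 and from 0 to 814. The highest counts came with array weights, except between the tissues, where the highest came with no filter. With 3 mice per group and TPM without counts, a difference that did not pass is not shown to be absent.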
